A study of Saccharomyces cerevisiae with 25 samples.

Results

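The late phase of phosphate starvation was examined. In yeast cells moved to medium without phosphate, the 3 libraries taken at 315, 345 and 360 min were compared with the 3 taken at 225, 240 and 255 min, which makes 6 of the 25 libraries of the series. The question put to these samples was what still changed after the steep fall of ribosomal protein transcripts had ended. All cells of both windows were Saccharomyces cerevisiae of the BY4741 background, a laboratory haploid of mating type a, carried a yellow fluorescent protein gene behind the PHO84 promoter (pho84pr-YFP) and a DAmP allele of PHO85 (pho85 damp), and had been grown in high phosphate before the transfer. In a DAmP allele the 3′ end of the gene is disrupted, which makes its messenger RNA less stable. Cells with an unaltered PHO85 were not analysed here, so the results describe this 1 strain. The library at 330 min was left out of the main comparison because it held 29748 listed reads, and the 3 libraries at 270, 285 and 300 min, which lie between the windows, served to look at the path from one window to the other.

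Each time point was a single library of 1 time course, so the 3 libraries of a window are neighbouring time points standing in for replicates. The p-values below cover only library-to-library spread, in which movement inside a window is included. Because RNA is compared per sample, fewer cells of a kind and less RNA per cell cannot be told apart. Levels are given in RPM, reads per 1000000 reads of the genes listed in that library, and a gene with fewer than 10 reads in a library has no value there. The libraries of 225 to 255 min held 589017 to 846690 listed reads, and those of 315 to 360 min held 325649, 478484 and 169769. The lowest level that could be listed was therefore 11.8 to 16.98 RPM in the first window but 30.7, 20.9 and 58.9 RPM in the second. A total of 3048 genes were listed in all 6 libraries, of 5669 with a value anywhere in the series, and these were tested. All 3 libraries of the first window listed 4657 genes and all 3 of the second 3058, so genes left the test mainly through the higher late floors. A weakly expressed gene that fell was therefore more easily lost from the test than one that rose. Some genes called higher below had first-window values under the 58.9 RPM floor of 360 min. These were all 3 values of ARO80 and those at 225 and 240 min of TKL2 and YBR116C. NQM1 and YRO2 had such a value at 240 min. At such a level the library at 360 min would not have listed them, so their being tested depended on a higher level there.

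Phosphate starvation in yeast is read by the kinase Pho85 with its cyclin Pho80. While phosphate is plentiful they hold the transcription factor Pho4 inactive, and when phosphate runs out Pho4 switches on the PHO regulon, which encodes phosphate transporters, secreted acid phosphatases and the polyphosphate polymerase. Pho85 also restrains Rim15, a kinase that promotes entry into quiescence, and through it the stress factors Msn2 and Msn4. Cells that stop growing accumulate small hydrophilic proteins, chaperones and antioxidant enzymes, while histone, DNA replication and ribosome genes are turned down.

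The labels were checked before the comparison. Among the 6 libraries PHO85 had a value only in that of 240 min (21.3 RPM), so its level could not be compared. HIS3, LEU2, MET17 and URA3, which are deleted in BY4741, were unlisted in all 6. All 7 a-specific genes were listed in at least 1 of the 6 libraries, and 4 of them in all 6. Their summed level was 3591 to 4141 RPM at 225 to 255 min and 3181 to 5074 RPM at 315 to 360 min. The 4 alpha-specific genes summed to 47.5 to 86.2 RPM in the first window and to 0 to 69.0 RPM in the second, and the alpha-factor genes MF(ALPHA)1 and MF(ALPHA)2 were unlisted. Of the meiotic genes IME1 and SPO11 were unlisted and the others summed to at most 113 RPM.

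The mean share of ribosomal protein transcripts did not fall from the first window to the second, although the share was lower at 270 to 300 min. The genes of the cytosolic ribosomal proteins had taken 33.7% of listed reads at 0 min and 10.99% at 195 min. They took 5.01%, 4.87% and 5.04% at 225, 240 and 255 min, then 4.07% to 4.43% at 270 to 300 min, and 5.01%, 4.79% and 7.52% at 315, 345 and 360 min. The mean was 4.98% ± 0.089 (SD, n = 3) in the first window and 5.77% ± 1.52 (SD, n = 3) in the second, and the difference of 0.80 percentage points was within the spread (exact permutation test, two-sided, p = 0.9, where 0.1 is the smallest p possible with 3 against 3). Without the library at 360 min, the shallowest of the 6, the difference was -0.079. At 330 min the share was 16.1%, in a library that listed 920 genes.

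Most transcripts differed little between the windows. The median log2 change over all 3048 genes, 315-360 minus 225-255 min, was 0.08, and the central 90% of genes lay between -0.48 and 0.73. The limma test with Benjamini-Hochberg adjustment called 31 genes at an adjusted p under 0.05, which is 1.02% of the genes tested. Of these, 21 were higher at 315 to 360 min (0.689%) and 10 were lower (0.328%). Near-equal neighbours reduce them to 28 loci, 19 higher and 9 lower, because TKL2 and YBR116C, SIP18 and YMR175W-A, and SRL1 and YOR248W carried the same or nearly the same values in each of the 6 libraries compared. A gene whose 3 late values all lay above its 3 earlier values was common, with 327 genes (10.7%), and 191 genes (6.27%) had all 3 late values below. At an unadjusted p under 0.05 there were 233 higher and 119 lower genes.

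**Figure D1:**
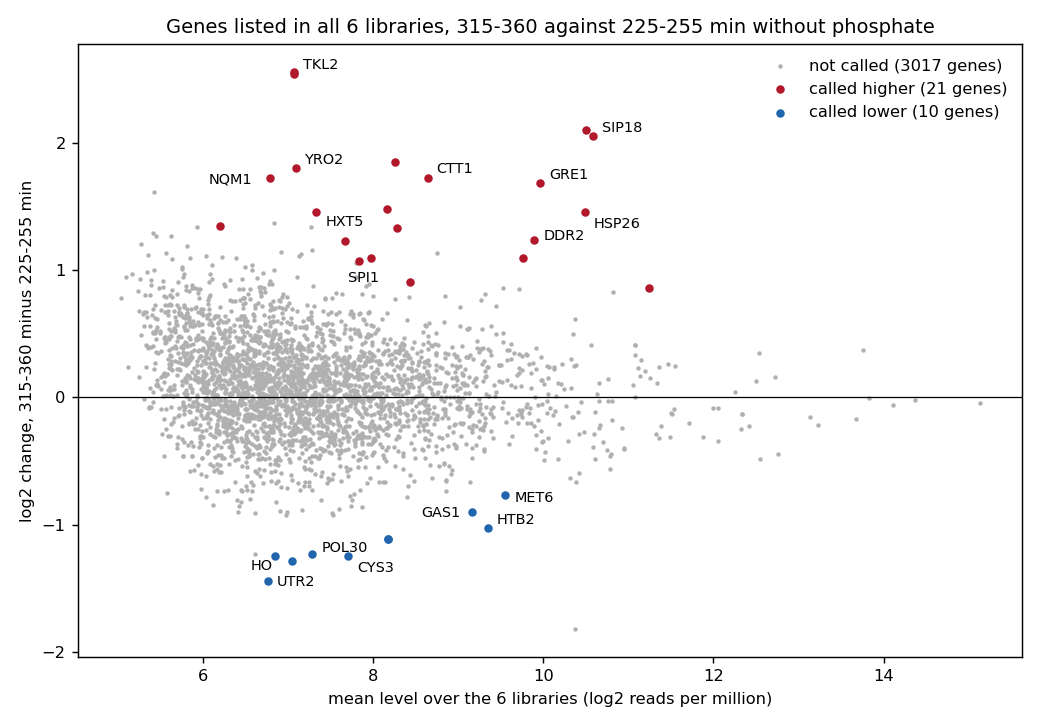
Change of each gene tested against its mean level. The horizontal axis is the mean log2 level in RPM over the 6 libraries, the vertical axis the log2 change of 315-360 minus 225-255 min, and each point is 1 of 3048 genes. The called genes lie at the edge of the cloud or outside it, with TKL2 and SIP18 highest and UTR2 lowest among them, while the grey point below them is YLR154C-G.

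The genes that rose were led by stress and stationary-phase genes. SIP18 and GRE1, paralogous genes for hydrophilins, which are small, very hydrophilic proteins linked to survival of drying, rose 4.15-fold and 3.21-fold. CTT1, the cytosolic catalase, rose 3.29-fold and HSP26, a small heat shock protein, 2.75-fold. TKL2, the minor transketolase, rose 5.80-fold and NQM1, the minor transaldolase, 3.30-fold.

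SIP18 (chromosome XIII, 611016 to 611255 in build R64) had levels of 635, 782 and 857 RPM at 225, 240 and 255 min and of 2540, 4351 and 2751 RPM at 315, 345 and 360 min. The log2 change was 2.05 (SE 0.20; limma, adjusted p = 3.93e-05), and every late library lay above every earlier one. Between the windows the gene climbed through 890, 1285 and 1735 RPM, from 41.0 RPM at 0 min. Its downstream neighbour YMR175W-A followed it, with a log2 change of 2.10. GRE1 (chromosome XVI, 128632 to 129138) stood at 484, 596 and 601 RPM and later at 1397, 2746 and 1502 RPM (log2 change 1.68, SE 0.23; limma, adjusted p = 0.00061). Both hydrophilin genes peaked in the library at 345 min and the windows did not overlap.

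TKL2 (chromosome II, 474392 to 476437) acts in the non-oxidative pentose phosphate pathway, where it shuttles carbon fragments between sugars. It was listed at 40.7, 52.0 and 82.1 RPM in the first window and at 393, 282 and 306 RPM in the second (log2 change 2.54, SE 0.29; limma, adjusted p = 0.00015). TKL2 at 225 and 240 min lay below the listing floor of the library at 360 min. It had the largest rise apart from YBR116C, a frame at the same locus, and over the whole course 12 libraries list it, that of 0 min with 4.04 RPM. YBR116C, which is not in the annotation used here, had the same value in every library of both windows but that at 255 min (79.0 RPM). NQM1, the paralog of the main transaldolase gene TAL1, had 64.5, 55.5 and 62.0 RPM and then 255, 130 and 242 RPM (log2 change 1.72, SE 0.30; limma, adjusted p = 0.0078). Of the 16 pentose phosphate genes tested these were the 2 called, against 0.689% of all genes called higher. The list median was 0.09, and 8 of the 16 lay above the median of all genes.

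CTT1, which breaks down hydrogen peroxide, had 261, 206 and 197 RPM and later 715, 435 and 1213 RPM (log2 change 1.72, SE 0.29; limma, adjusted p = 0.0055). The late libraries all lay above the earlier ones but differed among themselves more than in SIP18 or HSP26. CTT1 was the single gene called of 20 tested in oxidative stress defence, against 0.689% of all genes called higher. The median of that list was -0.04, and 13 of the 20 lay below the median of all genes. Late values were all lower in 5 of them, against 6.27% of all genes, and all higher in 2, against 10.7%. HSP26 stood at 638, 919 and 1110 RPM and then held 2220, 2470 and 2456 RPM (log2 change 1.46, SE 0.19; limma, adjusted p = 0.00059). At 300 min it had reached 2082 RPM, above every value of the first window. SPG4, a stationary-phase gene, went from 165, 181 and 169 RPM to 534, 466 and 436 RPM (log2 change 1.48, SE 0.20; limma, adjusted p = 0.00059).

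HXT5 was the only hexose transporter gene called of the 4 tested, against 0.689% of all genes called higher. This transporter of moderate affinity is made in slowly growing cells, and it had 73.0, 135 and 93.0 RPM at 225 to 255 min and 298, 276 and 230 RPM at 315 to 360 min (log2 change 1.46, SE 0.27; limma, adjusted p = 0.010). ALD3, a cytosolic aldehyde dehydrogenase, DDR2, a multistress gene, and MSC1 rose 2.51-fold, 2.35-fold and 1.81-fold. SPI1, a cell wall protein made under weak acid stress, rose 2.10-fold, and YRO2, a membrane protein related to Hsp30, rose 3.49-fold. YCL048W-A rose 3.60-fold, from 168, 125 and 198 RPM to 497, 608 and 642 RPM. Listed as YLR164W, SHH4 rose 2.35-fold.

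The remaining rises were in CPA1, URA2, ARO80 and GTR1. CPA1, the small subunit of the arginine-specific carbamoyl phosphate synthase, had 486, 604 and 710 RPM and then 1360, 1066 and 1402 RPM (log2 change 1.10, SE 0.19; limma, adjusted p = 0.0075). URA2, which makes carbamoyl phosphate for pyrimidines and carries out the next step, rose 1.87-fold, and ARO80, the activator of genes for breakdown of aromatic amino acids, 2.54-fold. All 3 first-window values of ARO80, 43.7 to 49.2 RPM, lay below the listing floor of the library at 360 min. URA2 lost its call under median centring and quantile normalization, and ARO80 under quantile normalization. With a late window of 270 to 360 min both lost it, as did SIP18, GRE1, NQM1 and ALD3 among others, and 11 of the 31 calls were kept. Without trend and robust settings 14 of the 31 were kept, and CTT1, DDR2 and HXT5 were among those lost. GTR1, a small GTPase that relays amino acid supply to the TORC1 kinase, had 166, 191 and 161 RPM and then 316, 372 and 424 RPM (log2 change 1.09, SE 0.21; limma, adjusted p = 0.014). GTR1 begins at position 26930 of chromosome XIII and is transcribed away from PHO84, whose frame begins at 25800 on the other strand. PHO84 itself was not called, with a log2 change of -0.15. CPA1 was the single gene called of 57 in amino acid synthesis, and URA2 the single one of 30 in purine, pyrimidine and one-carbon metabolism, against 0.689% of all genes called higher.

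**Figure D2:**
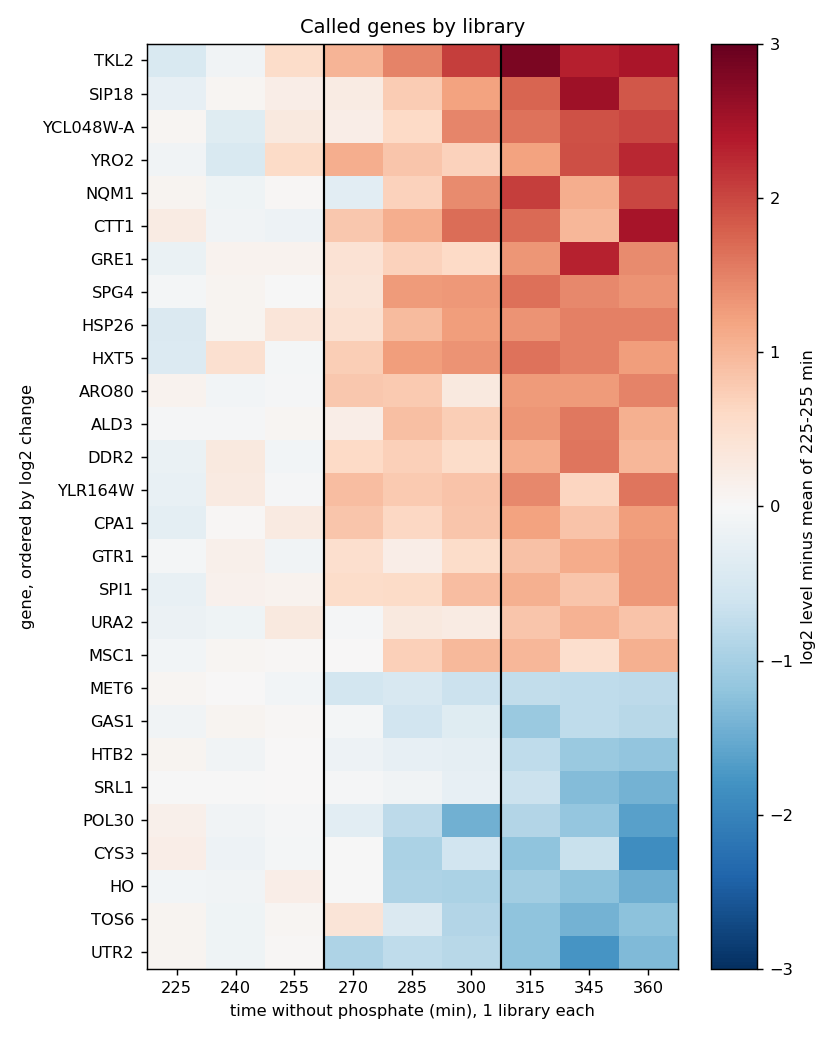
Called genes in each library from 225 to 360 min without 330 min, 1 row per locus. The horizontal axis is time without phosphate with 1 library in each column, rows are ordered by log2 change, and the colour is the log2 level minus the mean of the 3 libraries at 225 to 255 min. Columns at 270 to 300 min are paler than those at 315 to 360 min for most genes in both directions.

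The genes that fell had varied roles, in the cell wall (UTR2, TOS6, GAS1 and SRL1), mating-type switching (HO), sulfur amino acid synthesis (CYS3 and MET6), DNA replication (POL30) and chromatin (HTB2). UTR2, a chitin transglycosylase that links chitin to glucan, fell most among the called genes, to 0.369 of its earlier level, followed by TOS6 at 0.410 and HO at 0.422. POL30 encodes the sliding clamp PCNA, CYS3 the enzyme that makes cysteine from cystathionine, and HTB2 a histone H2B. With the library at 225, 240 or 255 min left out, limma called 0 genes lower and 11, 12 and 15 genes higher in turn, with 198, 212 and 266 genes in both directions at an unadjusted p under 0.05.

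UTR2 (chromosome V, 78053 to 79456) had 190, 163 and 183 RPM and then 76.8, 52.2 and 70.7 RPM (log2 change -1.44, SE 0.27; limma, adjusted p = 0.013). Its late libraries lay below the earlier ones, and at 270 to 300 min it was already at 93.5 to 106 RPM. TOS6, a glycosylphosphatidylinositol-anchored wall protein, had 219, 188 and 215 RPM and then 89.1, 77.3 and 88.4 RPM (log2 change -1.29, SE 0.24; limma, adjusted p = 0.013). GAS1, which elongates the glucan of the wall, fell to 0.536 and SRL1, a mannoprotein, to 0.462 of the earlier level. The lists held 26 tested genes of cell wall proteins and integrity, of which SPI1 was called higher and UTR2 and GAS1 lower, against 0.689% and 0.328% of all genes, with a median log2 change of -0.16 against 0.08 over all genes.

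POL30 (chromosome II, 424990 to 425766) stood at 263, 221 and 234 RPM in the first window, at 191, 137 and 87.8 RPM from 270 to 300 min, and at 129, 107 and 76.6 RPM in the second window (log2 change -1.23, SE 0.26; limma, adjusted p = 0.025). It was the 1 gene called of 23 in the G1/S and DNA replication list, against 0.328% of all genes called lower, and the list's median was -0.20. RNR1, the large subunit of ribonucleotide reductase, the cohesin gene MCD1 and the flap nuclease gene RAD27 had non-overlapping windows and log2 changes of -0.86, -0.86 and -0.85 that did not pass (limma, adjusted p = 0.079, 0.31 and 0.12). RNR2 and RNR4, which encode the small subunit of the same enzyme, had log2 changes of 0.37 and 0.25 with all late values above the earlier ones, and neither passed. HO, the endonuclease gene of mating-type switching, was lower too, at 166, 165 and 203 RPM and then 86.0, 75.2 and 64.8 RPM (log2 change -1.25, SE 0.26; limma, adjusted p = 0.026).

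Of the histone genes only HTB2 passed the test, from 988, 866 and 938 RPM to 547, 431 and 406 RPM (log2 change -1.02, SE 0.18; limma, adjusted p = 0.0082). All 10 histone genes tested lay below the median of all genes, with log2 changes from -1.02 to -0.21 and a list median of -0.58. In 8 of them the 3 late values were all below the 3 earlier ones, against 6.27% of all genes. HTB1, the other H2B gene, had 667, 711 and 752 RPM and then 553, 355 and 454 RPM (log2 change -0.67; limma, adjusted p = 0.17). HHT1 and HHF1, which encode histones H3 and H4, overlapped between the windows. HTA1 and HTA2, HTB1 and HTB2, HHT1 and HHT2, and HHF1 and HHF2 are pairs of near-identical copies, so the split of reads within a pair is uncertain. By library, the median of the list relative to 225 to 255 min was -0.11 to 0.01 at 270 to 300 min and then -0.36, -0.70 and -0.48 at 315, 345 and 360 min. The shallow library at 330 min does not follow this, since it listed HTB2 at 1042 RPM and GAS1 at 1176 RPM, above their levels of 225 to 255 min, and MET6 at 975 RPM, within them. With that library added, 911 genes could be tested, of which limma called 10 higher and 0 lower, with 74 in both directions at an unadjusted p under 0.05.

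In sulfur amino acid synthesis CYS3 (chromosome I, 130799 to 131983) had 367, 289 and 308 RPM and then 138, 203 and 88.4 RPM (log2 change -1.24, SE 0.28; limma, adjusted p = 0.038). MET6, the methionine synthase, had 1017, 992 and 928 RPM and then 583, 575 and 565 RPM (log2 change -0.77, SE 0.16; limma, adjusted p = 0.030), with the least spread between late libraries of the called genes. These were the 2 called of 24 sulfate and methionine genes tested, against 0.328% of all genes called lower, and the list median was -0.27. In 7 of the 24 the windows did not overlap and the late one was lower, against 6.27% of all genes. SAM1, which makes S-adenosylmethionine, had 161, 139 and 149 RPM and then 49.1, 50.2 and 106 RPM, a log2 change of -1.23 that did not pass (limma, adjusted p = 0.11). The strain lacks MET17, whose enzyme makes homocysteine from sulfide.

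**Figure D3:**
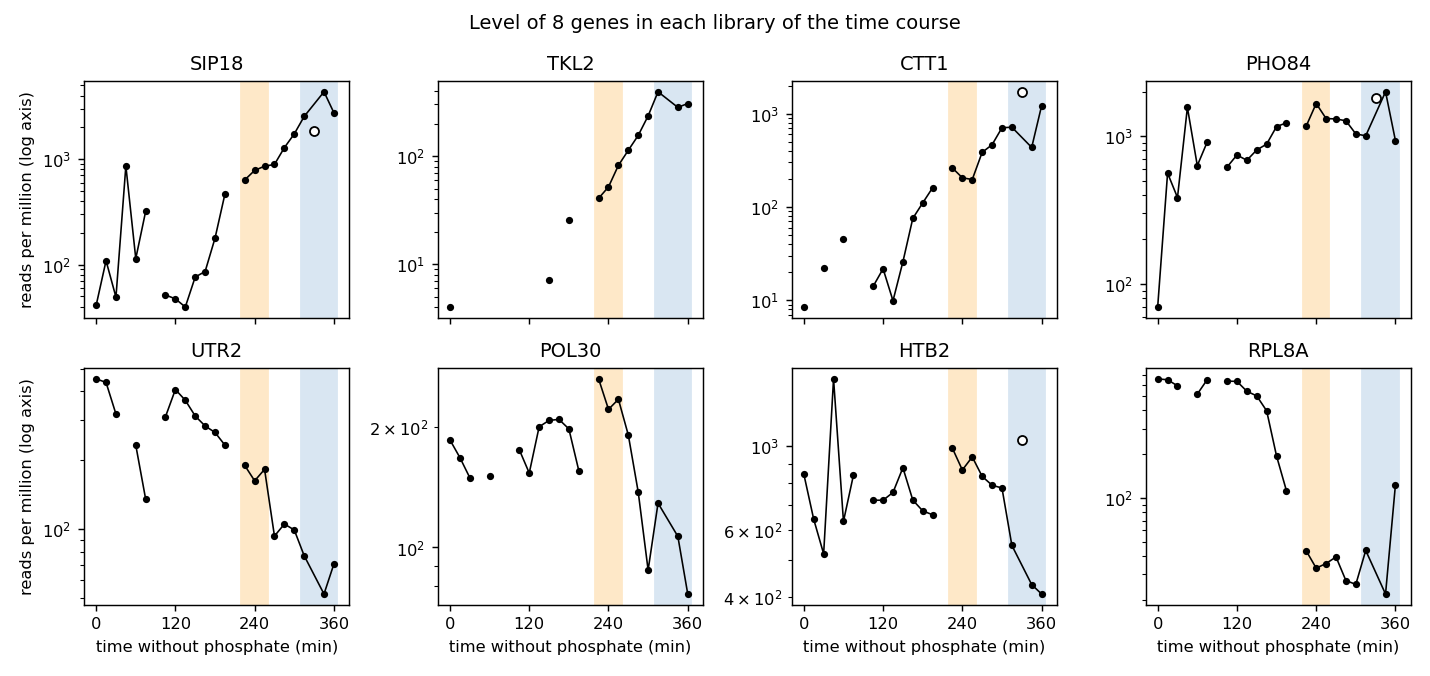
Levels of 8 genes over the whole time course. The horizontal axis is time without phosphate in min, the vertical axis the level in RPM on a log scale, each filled point is 1 library and the open point is the shallow library at 330 min. Shaded bands mark 225 to 255 and 315 to 360 min, lines join neighbouring libraries other than 330 min that list the gene, and RPL8A falls before the first band while SIP18, TKL2 and CTT1 climb between the bands.

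The sequences before these genes are shown because many of the rising genes are known targets of Msn2 and Msn4, which bind the stress response element with the core AGGGG. The window read was 250 bases long, from 350 to 101 bases before the first base of the frame in R64, and both strands were searched for AGGGG. The same was done for ACGCGT, the MluI cell cycle box of DNA replication genes. Also searched was CACGTG, an E-box bound by Cbf1 and, with suitable flanks, by Pho4. None of these motifs contains another. The windows and motifs were chosen after the values had been seen, so the counts are descriptions. AGGGG or its complement CCCCT was present before 11 of the 19 loci called higher (57.9%), before 0 of the 9 called lower, before 22.3% of 2999 genes tested and before 20.1% of all 6001 promoters. DDR2 had 3 matches, NQM1, SPI1 and MSC1 had 2 each, and HSP26, CTT1, HXT5, ALD3, ARO80, CPA1 and YCL048W-A had 1. SIP18, GRE1, TKL2, SPG4, YRO2, URA2, GTR1 and SHH4 had none in this window. ACGCGT stood before POL30 and SHH4, against 3.37% of all promoters, and CACGTG before CYS3 and GTR1, against 3.78%.

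Printed here 5′ to 3′ toward the gene, with every match in capitals, are DDR2 (chrXV:231856-232105, minus strand), CTT1 (chrVII:654284-654533, plus strand) and HSP26 (chrII:381680-381929, plus strand) as rising genes with AGGGG or CCCCT, POL30 (chrII:425867-426116, minus strand) with ACGCGT and CYS3 (chrI:130449-130698, plus strand) as falling genes, and GTR1 (chrXIII:26580-26829, plus strand), whose window lies between the starts of PHO84 and GTR1.
DDR2: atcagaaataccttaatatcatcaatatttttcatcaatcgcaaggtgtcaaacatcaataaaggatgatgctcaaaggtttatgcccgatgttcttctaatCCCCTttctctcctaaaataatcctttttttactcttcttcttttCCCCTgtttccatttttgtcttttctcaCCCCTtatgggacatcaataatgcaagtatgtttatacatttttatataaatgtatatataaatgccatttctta
CTT1: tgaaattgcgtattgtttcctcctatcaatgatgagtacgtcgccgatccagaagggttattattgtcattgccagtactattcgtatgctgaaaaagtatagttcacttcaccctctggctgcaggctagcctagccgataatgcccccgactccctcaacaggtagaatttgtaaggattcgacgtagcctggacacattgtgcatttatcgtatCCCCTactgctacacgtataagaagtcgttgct
HSP26: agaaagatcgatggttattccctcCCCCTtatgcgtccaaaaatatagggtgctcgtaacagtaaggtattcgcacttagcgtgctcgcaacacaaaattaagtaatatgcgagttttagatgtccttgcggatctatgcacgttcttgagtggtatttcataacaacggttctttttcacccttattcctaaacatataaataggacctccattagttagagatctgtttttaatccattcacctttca
POL30: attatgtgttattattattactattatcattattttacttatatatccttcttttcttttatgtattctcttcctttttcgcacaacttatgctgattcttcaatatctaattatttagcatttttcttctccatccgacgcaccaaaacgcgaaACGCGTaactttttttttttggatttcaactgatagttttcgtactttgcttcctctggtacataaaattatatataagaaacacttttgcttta
CYS3: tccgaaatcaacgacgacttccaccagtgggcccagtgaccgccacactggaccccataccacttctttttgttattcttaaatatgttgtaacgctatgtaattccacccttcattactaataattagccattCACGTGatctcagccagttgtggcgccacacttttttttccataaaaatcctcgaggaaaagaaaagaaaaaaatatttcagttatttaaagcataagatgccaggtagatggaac
GTR1: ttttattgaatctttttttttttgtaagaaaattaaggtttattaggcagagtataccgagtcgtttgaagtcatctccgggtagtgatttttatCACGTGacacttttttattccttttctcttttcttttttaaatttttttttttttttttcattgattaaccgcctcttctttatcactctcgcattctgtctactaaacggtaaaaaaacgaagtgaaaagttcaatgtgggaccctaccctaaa

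In DDR2 the matches all read CCCCT and lie in a stretch rich in pyrimidines, whereas CTT1 and HSP26 have a single one. The CACGTG of CYS3 and that of GTR1 are the same letters before a gene that fell and a gene that rose. CYS3 is a known target of Cbf1 and Met4.

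The list of Msn2 and Msn4 stress genes held 40 tested genes, of which 7 were called higher and 0 lower, against 0.689% and 0.328% of all genes. The called ones were TKL2, NQM1, CTT1, HSP26, ALD3, DDR2 and MSC1. The list median was 0.32, and 30 of the 40 lay above the median of all genes. Late values were all higher in 12 of them, against 10.7% of all genes, and all lower in 2, DDR48 and TRX2, against 6.27%. Relative to 225 to 255 min, the list median was 0.24, 0.46 and 0.26 at 270, 285 and 300 min. It was 0.54, 0.21 and 0.24 at 315, 345 and 360 min, so the list as a whole did not climb steadily. HSP12, whose small protein protects membranes, had 13066, 12257 and 11342 RPM and then 18323, 14293 and 15003 RPM, a log2 change of 0.37 that did not pass (limma, adjusted p = 0.21). Of 14 hydrophilin and stationary-phase genes, SIP18, GRE1 and SPG4 were called higher, against 0.689% of all genes, and the median was 0.39. SNO1 of that list had 34.0, 18.9 and 23.2 RPM and then 82.9, 37.6 and 135 RPM, a log2 change of 1.61 that did not pass (limma, adjusted p = 0.18). Of the 12 glycogen and trehalose genes limma called 0, and 0 had an unadjusted p under 0.05, with a median of 0.06 and changes from -0.34 to 0.43.

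**Figure D4:**
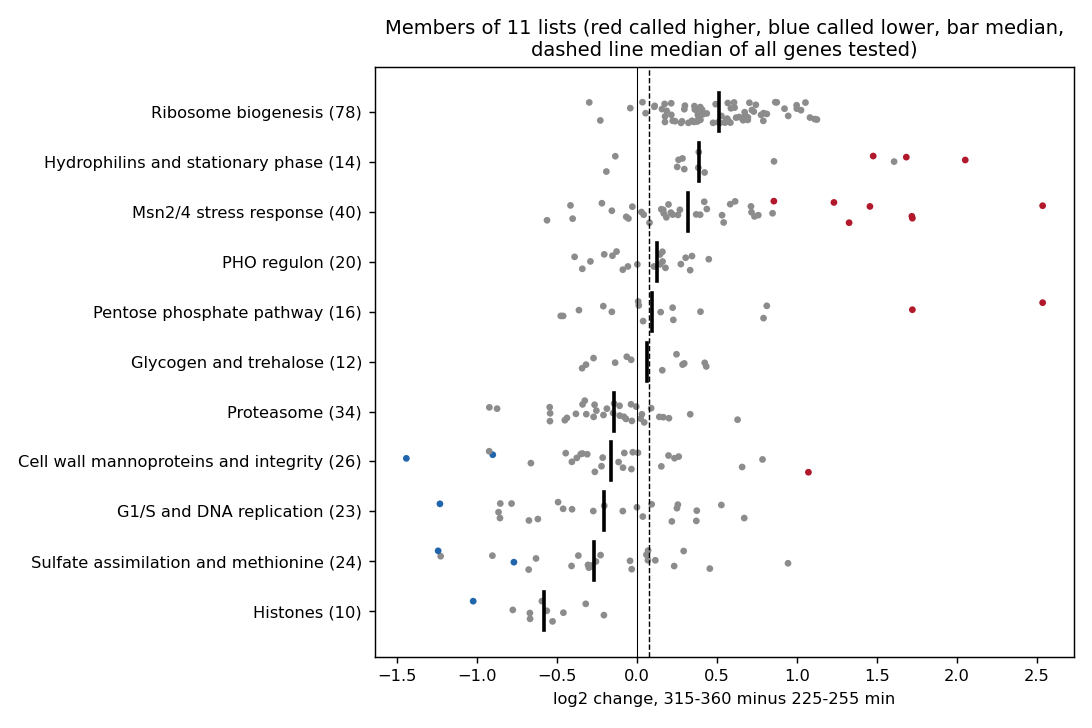
Members of 11 gene lists. The horizontal axis is the log2 change of 315-360 minus 225-255 min, each point is a tested gene, the number of tested genes stands behind each list name, black bars are list medians and the dashed line is the median of all genes tested, 0.08. Histones lie wholly to the left of the dashed line, and the called stress genes form a tail to the right of their list.

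The PHO regulon, the direct response to phosphate, gave small changes. Of its 20 tested genes limma called 0, with 1 higher and 0 lower at an unadjusted p under 0.05, the median log2 change was 0.13, and changes ran from -0.39 to 0.45. PHO5, the main secreted acid phosphatase, had 5089, 4870 and 5969 RPM and then 6873, 6387 and 6905 RPM, a log2 change of 0.34 with non-overlapping windows that did not pass (limma, adjusted p = 0.31). PHO11, a minor acid phosphatase with a near-identical copy in PHO12, was the one with late values all below the earlier ones, with a log2 change of -0.29. PHO84, the high-affinity phosphate transporter, had 1171, 1661 and 1314 RPM and then 1004, 1994 and 931 RPM, so its windows overlapped and the library at 345 min stood above the other two late ones. PHO89, the sodium-coupled phosphate transporter, SPL2, a regulator of low-affinity uptake, and PHO81, the inhibitor of Pho85 and Pho80, had log2 changes of 0.11, -0.06 and 0.28. VTC3, a subunit of the polyphosphate polymerase, had a log2 change of -0.39 (limma, adjusted p = 0.47), with late values of 1274, 1854 and 1031 RPM. The median of the list by library stayed between -0.05 and 0.11 from 225 to 360 min, against -3.39 at 0 min.

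Genes for making ribosomes lay above the rest without any gene passing the test. Of 78 ribosome biogenesis genes limma called 0, while 23 were higher and 0 lower at an unadjusted p under 0.05, the median log2 change was 0.51, and 73 lay above the median of all genes. The windows did not overlap in 15 of them, against 10.7% of all genes. By library the list moved more inside the first window, with medians of -0.42, 0.04 and 0.33 at 225, 240 and 255 min, than its median moved between the windows, with -0.10, -0.16 and 0.35 at 270 to 300 min and 0.17, 0.80 and 0.61 at 315, 345 and 360 min. NSR1, a nucleolar protein, had 49.2, 164 and 110 RPM and then 117, 408 and 194 RPM (log2 change 1.13; limma, adjusted p = 0.33). The 18 genes of RNA polymerases I and III had a median of 0.49 and 0 calls, with 4 higher and 0 lower at an unadjusted p under 0.05. The 80 genes of the large and 54 of the small ribosomal subunit had medians of 0.23 and 0.17 and 0 calls, with 3 and 9 higher and 0 and 1 lower at an unadjusted p under 0.05. By library the large-subunit median was -0.01, 0.08 and 0.65 at 315, 345 and 360 min. The median of all genes was itself 0.22 in the library at 360 min, where genes below 58.9 RPM are unlisted, and whether this contributed to the list medians was not tested.

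**Figure D5:**
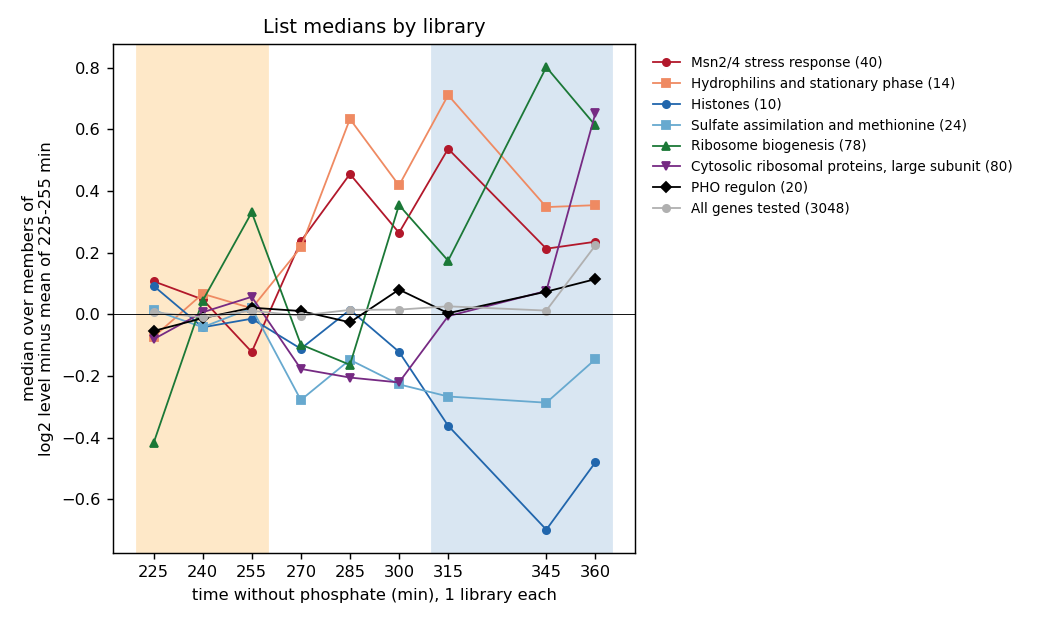
Medians of 7 gene lists and of all genes tested by library. The horizontal axis is time without phosphate in min, the vertical axis the median over members of the log2 level minus the gene's mean at 225 to 255 min, and shaded bands mark both windows. Histones are lowest at 345 min (-0.70), ribosome biogenesis genes highest there (0.80), and the PHO regulon stays within -0.05 to 0.11.

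The following lists of carbon, nitrogen and protein turnover genes and of Pho85 cyclins gave 0 calls. Of 31 respiratory chain and ATP synthase genes limma called 0, with 5 higher and 0 lower at an unadjusted p under 0.05. Their median was 0.09, and 11 had non-overlapping higher windows, against 10.7% of all genes, among them NDE2, an external NADH dehydrogenase, at 28.9, 34.3 and 32.5 RPM and then 111, 69.0 and 58.9 RPM (log2 change 1.27; limma, adjusted p = 0.18). The 58.9 RPM of the last library is the lowest level it could list. Of 34 proteasome genes limma called 0, with 0 higher and 7 lower at an unadjusted p under 0.05. Their median was -0.14, and 9 had non-overlapping lower windows, against 6.27% of all genes, while RPN4, the activator of these genes, was the one with higher windows. The 18 genes of the TCA and glyoxylate cycles had a median of -0.02, the 21 of glycolysis -0.12 and the 12 of autophagy 0.23. Each of these lists had 0 calls, and at an unadjusted p under 0.05 they held 1, 0 and 1 higher and 2, 3 and 0 lower genes in turn. Of 19 genes under nitrogen catabolite repression limma called 0, with 1 higher and 0 lower at an unadjusted p under 0.05. Their median was 0.26, and the general amino acid permease gene GAP1 had a log2 change of 0.26. The 5 Pho85 cyclin genes tested gave 0 calls and 1 higher gene at an unadjusted p under 0.05, with PCL6 at 0.93 and PCL1 at -0.49.

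At 270 to 300 min the called genes stood between the windows on average, while single genes differed in how far they had moved. In the libraries of 270 to 300 min, which the test had not used, the mean of each of the 21 genes called higher and of the 10 called lower lay between its means in both windows. The median change from 225-255 to 270-300 min was 0.76 on the log2 scale for the genes called higher and -0.43 for those called lower, against -0.01 for all genes. Between 225-255 and 270-300 min limma called 0 of the 3048 genes, with 67 higher and 43 lower at an unadjusted p under 0.05. The called genes were chosen for a difference that shares the libraries of 225 to 255 min. A mean on the same side at 270 to 300 min was therefore likely in advance, and these changes are descriptions. Of all 3048 genes, 1445 had a mean at 270 to 300 min above that of 225 to 255 min. SRL1 and HTB2 had log2 changes of only -0.13 and -0.22 at 270 to 300 min, against -1.11 and -1.02 in the second window. TOS6 at 270 min stood at 272 RPM, above its first window. By library the median of the genes called higher was 0.49, 0.80 and 0.97 at 270, 285 and 300 min and 1.36, 1.51 and 1.497 at 315, 345 and 360 min. That of the genes called lower was -0.05, -0.52 and -0.61 and then -0.97, -1.20 and -1.38.

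Genes that left the table could not be tested. Of genes listed in all 3 libraries of 225 to 255 min, 139 were listed in none of the 3 libraries of 315 to 360 min, and 0 showed the opposite. RFC5, a subunit of the clamp loader that places PCNA on DNA, had the highest mean of these, 55.1 RPM, which makes it at least 1.5-fold lower against the mean late floor of 36.8 RPM. YCS4, a condensin subunit, followed at 48.0 RPM and at least 1.3-fold, then YFR017C, YDR307W and YIL152W at 47.3, 46.2 and 46.2 RPM. Of the 139, 14 had a mean above the mean late floor and 0 had one above the 58.9 RPM of the library at 360 min. The library at 360 min therefore cannot show a fall from the mean for any of the 139. The fold bounds of the 14 rest on the mean of the late floors and were not tested. For the others this depth cannot show whether they fell. YLR154C-G, a frame in the ribosomal DNA, had the largest fall of all tested genes, from 3176, 3716 and 1293 RPM to 967, 294 and 1225 RPM, with a log2 change of -1.82 (SE 0.64) that did not pass (limma, adjusted p = 0.35), and was named after its values were seen.

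The 3 late libraries resembled each other less than the earlier ones. Pearson correlations of log2 levels across the 3048 genes, which are not independent, were 0.944 to 0.961 within 225 to 255 min, and 0.896, 0.910 and 0.869 for 315 with 345, 315 with 360 and 345 with 360 min. The library at 345 min was closer to those at 240 and 255 min (0.919 and 0.925) than to that at 360 min. The late libraries were also shallower, with 325649, 478484 and 169769 listed reads against 589017 to 846690. The part of depth in these correlations was not tested. Leaving out the library at 345 min raised the number of called genes to 154, 88 higher and 66 lower, with all 31 among them. Leaving out 315 or 360 min gave 20 and 34 called genes.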

How the data were processed

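RNA of 25 samples of 1 time course was sequenced on an Illumina instrument after lyticase treatment and column extraction, per the labels' protocols. The submitters' processing notes name Bowtie and the build R64, while versions, the counter and any use of strand are not given in these sources, so overlapping genes may share reads. The authors deposited log2 values per gene, which on the linear scale sum to 1000000 in every library and start at a level that fits 10 reads, so they were read as log2 reads per 1000000 of listed genes. A normalization to 0 min that the labels mention was not found in the columns, which hold levels.

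Genes listed in all 6 libraries were tested on the deposited log2 scale, with no further scaling, by limma 3.58.1 in R 4.3.3 (empirical Bayes with trend and robust settings, two-sided, Benjamini-Hochberg over 3048 genes, threshold 0.05). The code was tested on simulated data. Of 6650 named rows, 5964 matched RefSeq's R64 table, which gave positions and, with its genome, the printed sequences. Neighbouring genes whose values differed by at most 0.3 log2 units in the compared libraries were counted as 1 locus. A list median is the median log2 change of its tested members. The groups follow the times in the labels. The windows, lists and tests were chosen with earlier results of these data known. Named genes were the called genes with the largest changes and non-overlapping windows (up to 15 a direction), up to 4 called members of each list or else the 2 with the largest change, a fixed set of PHO, stress and ribosome genes, and the 5 strongest genes listed in 1 window only. Other genes named were chosen after their values were seen, among them RNR1, RNR2, RNR4, MCD1, RAD27, the histone genes other than HTB2, PHO11 and RPN4. Python 3.11.15 with pandas 2.3.3, scipy 1.17.1 and matplotlib 3.10.9 was used. Alternatives covered scaling, a pseudocount of 5 RPM, a minimum mean of 50 RPM, genes listed in at least 2 libraries a window, the variance model, other windows, the library at 330 min and each library left out.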

Additional observations from a re-analysis of the deposited data

Results flagged for a closer look

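The library at 330 min, which the comparison leaves out, held a larger part of ribosomal protein reads than its neighbours. Over the 911 genes listed in all 7 libraries, 116 of them ribosomal protein genes, these took 16.2% of reads (16.18) at 330 min, against 7.07% to 7.35% at 225 to 255 min and 7.13%, 6.99% and 10.4% at 315, 345 and 360 min. This library had 29748 listed reads, and its lowest listed level was 336 RPM. The part of its depth in this value was not tested.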

How the results depend on the processing

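No paired analysis was possible because the labels give no replicate numbers and each time point is 1 library. All 31 called genes kept their direction under 18 alternatives (16 of 16 tested with 330 min added). The windows of all 31 did not overlap, so for many of these settings the direction was fixed in advance. This holds for leaving out 1 library, the variance model, library weights and the pseudocount. It also holds for the minimum level, the looser listing rule and 5 windows in 1 fit. Against 31 called genes, 21 higher and 10 lower, there were 14 without trend and robust settings (11 and 3), 78 with library weights (47 and 31), 12 for a late window of 270 to 360 min (10 and 2), 66 for a slope over time (43 and 23) and 10 with 330 min added (10 and 0). Leaving out 1 library gave 11 to 154 called genes, 11 to 88 higher and 0 to 66 lower, with 154 without 345 min and 0 lower without 225, 240 or 255 min. The cause was not tested. Median centring, quantile normalization, reads outside ribosomal protein genes, the pseudocount, the minimum level, the looser listing rule and 5 windows in 1 fit gave 30 to 35. URA2 was lost under median centring, and URA2 and ARO80 under quantile normalization. The 30 genes of 5 windows in 1 fit held 25 of the 31, without YCL048W-A, HXT5, ALD3, MSC1, CYS3 and HO. The late window of 270 to 360 min kept 11 of the 31, 9 higher and 2 lower. The ribosomal protein difference was 3.38 percentage points with 330 min added and -0.079 to 1.29 with 1 library left out.

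No sign changed for a called gene, which for the settings named above was fixed in advance. Of genes that did not pass, these log2 changes turned sign: MFA1 at -0.0010 (median centring), -0.0071 (quantile) and -0.073 (270 to 360 min), AGA2 at -0.050 (library weights) and -0.066 (270 to 360 min), PHO90 at 0.038 (270 to 360 min), PHO89 at -0.043 (library weights) and SPL2 at 0.061 (330 min added). With 1 library left out, values ran from -0.45 to 0.016 for VIP1, -0.38 to 0.22 for PHO90, -0.78 to 0.078 for VMA11, -0.22 to 0.30 for MFA1, -0.50 to 0.049 for PHO84, -0.050 to 0.28 for PHO89, -0.13 to 0.042 for SPL2 and -0.26 to 0.99 for RPL8A. Depth limits the comparison at low levels, since the late libraries list nothing below 20.9 to 58.9 RPM.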
